A study of Arabidopsis thaliana with 12 samples.

Results

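Wild-type Arabidopsis thaliana seeds from a pair of sets, named Col-0-2 and Col-0-1 in the labels, were compared gene by gene, with 3 libraries each (6 of the 12 libraries of the series). Both sets carry the wild-type genotype of the Col-0 accession, were stated to be developing seeds 9 days after pollination, came from plants grown at 22 °C in 16 h of light and 8 h of dark, and were taken from the silique with a needle before poly-A RNA was sequenced. The other 6 libraries are the mutants dellaq and lec1-4, 3 each, and are used here only to place a value. The labels do not say what sets the wild-type sets apart, at what hour they were harvested, or whether replicates came from separate plants, and p-values therefore rest on a spread among these libraries that may be technical. Levels are FPKM (fragments scaled for transcript length and library size), and ± is the SD over n = 3 libraries unless SE is written. Of 33602 gene IDs, 19597 reached 1 FPKM in at least 3 of the 6 libraries and were tested. A log2 change is Col-0-2 minus Col-0-1 on log2(FPKM + 1), a scale on which the change of a low gene comes out too small, and adjusted p-values are from limma over all tested genes.

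An Arabidopsis seed holds an embryo, an endosperm that feeds it and a seed coat of maternal tissue. In the maturation phase the embryo stops patterning and fills with storage proteins and oil under LEC1, LEC2, FUS3 and ABI3, the master regulators of seed filling, while the coat deposits tannins and mucilage. Many plant genes also follow the circadian clock, in which morning genes such as CCA1 and LHY and evening genes such as TOC1 and ELF4 repress each other in turn.

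Depth, estimated from the steps of low values, was 14800000 to 19400000 fragments per library. Genes at 1 FPKM or more numbered 19207 to 19404 in Col-0-2 libraries and 19081 to 19147 in Col-0-1 libraries. Across genes, libraries of 1 set correlated at r = 0.989 to 0.993, and libraries of different sets at r = 0.900 to 0.925. A principal component analysis put 88.2% of the variance on its leading axis, which parted the sets. Libraries also divided by plastid-encoded RNA, whose summed level was 4819 ± 266 FPKM in Col-0-2, 7673 ± 803 FPKM in dellaq, 164 ± 31.8 FPKM in lec1-4 and 202 ± 42.9 FPKM in Col-0-1, and by transcript length. Any difference in how the sets were grown, harvested or sequenced cannot be told apart from the sets. In all, 5165 genes (26.4% of those tested) were higher in Col-0-2 and 7858 (40.1%) were lower, with a median log2 change of -0.10 over all tested genes. With a change of at least 1 on the log2 scale as a further condition, 1349 genes (6.88%) were higher and 922 (4.7%) lower. In whole seeds, fewer cells of a type and less RNA per cell cannot be told apart. Counts of gene groups are to be read against 26.4% higher and 40.1% lower. Sets that do not overlap were common. The 3 Col-0-2 values lay all above the 3 Col-0-1 values in 5529 tested genes (28.2%) and all below in 8512 (43.4%). A filter of 5 FPKM left 15498 genes to test, and no filter left 26359. Group counts in those settings can therefore rest on fewer or more members. In 384 tested genes no Col-0-1 library reached 1 FPKM, and in 300 no Col-0-2 library did. Such genes passed the filter through a single set, so their sets could not overlap. Among genes named below, PR1, PHE1, AGL38 and HSP17.4 passed through Col-0-2 alone. BHLH100, bHLH38, AT5G44310, IMP4, AT3G13180 and AT3G15460 passed through Col-0-1 alone. Scaling by median ratios shifted the median of all genes to 0.00 and gave 6381 genes higher and 6219 lower, while equal sums of nuclear genes shifted it to -0.23 and gave 3915 and 10075.

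**Figure D1:**
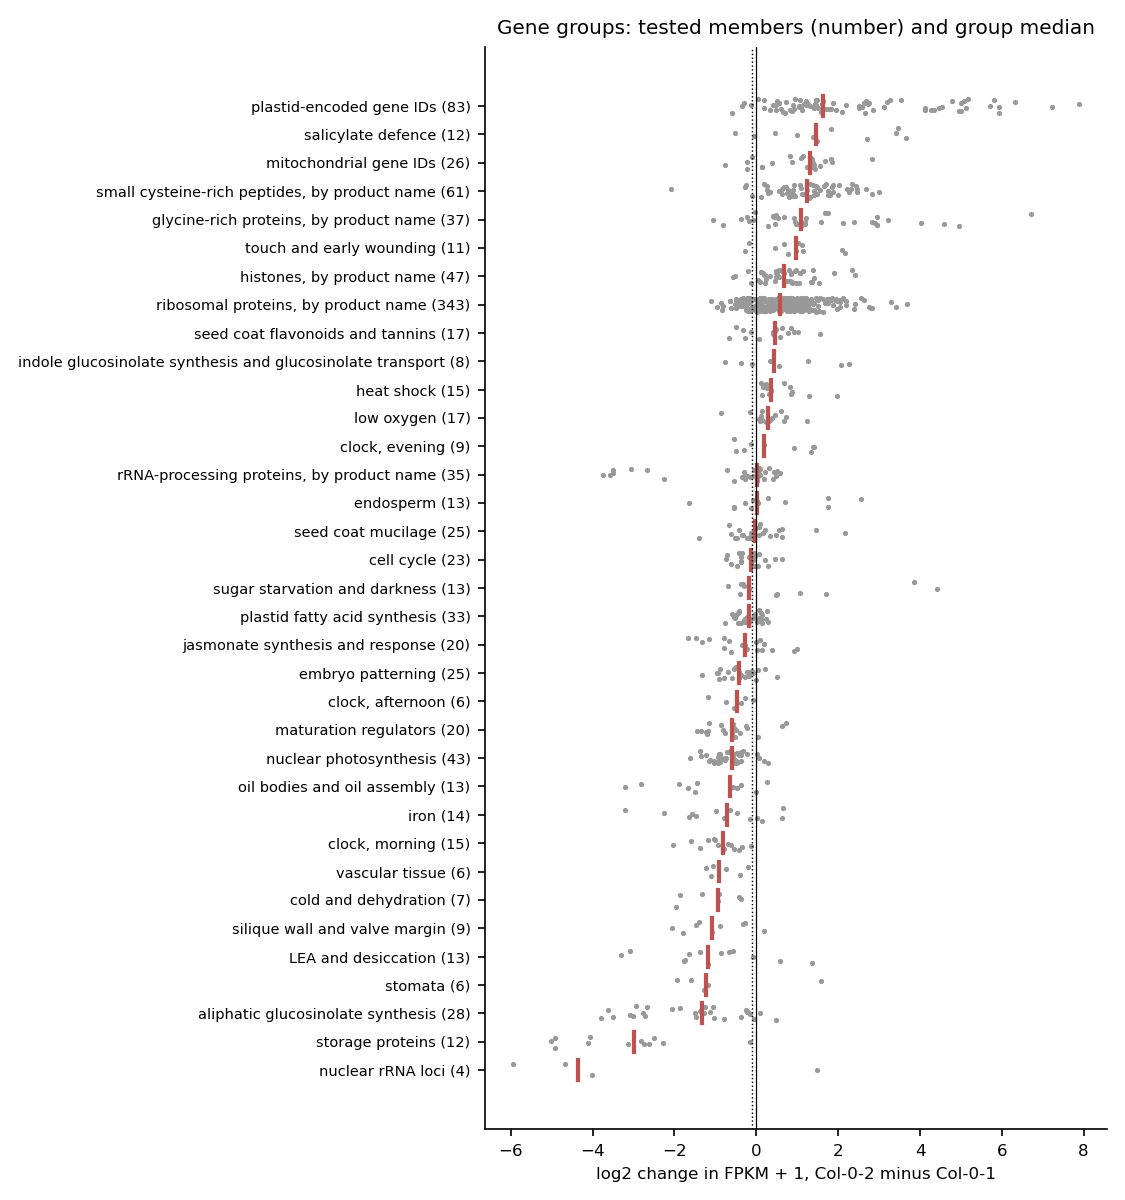
Log2 change (Col-0-2 minus Col-0-1, FPKM + 1) of each tested member (grey points) of the gene groups, with the number of tested members in parentheses and the group median as a red bar. The dotted line is the median of all tested genes (-0.10); group medians run from -4.35 for nuclear rRNA loci to 1.62 for plastid-encoded gene IDs.

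The regulators of maturation were mostly lower in Col-0-2. Of 21 listed genes, 20 were tested, 16 were lower, 2 were higher and 2 did not pass, with a median log2 change of -0.59. FUS3 (AT3G26790), a B3 transcription factor that switches on storage genes, measured 41.5, 48.5 and 45.9 FPKM in the Col-0-2 libraries, against 126, 113 and 140.5 FPKM in the Col-0-1 libraries. For FUS3 the log2 change was -1.46 ± 0.09 SE (adjusted p = 4.1e-06), and every Col-0-2 library lay below every Col-0-1 library. ABI3 (AT3G24650), the B3 factor that links seed filling to abscisic acid, measured 33.6, 36.2 and 39.9 FPKM in the Col-0-2 libraries, against 83.8, 79.5 and 89.6 FPKM in the Col-0-1 libraries. For ABI3 the log2 change was -1.18 ± 0.07 SE (adjusted p = 4.3e-06), and the sets did not overlap. The gap between the sets was wide for both genes. NF-YB6 (AT5G47670, also L1L), the close relative of LEC1, averaged 97.8 ± 6.9 FPKM in Col-0-2 and 232 ± 24.1 FPKM in Col-0-1 (log2 change -1.23 ± 0.08 SE, adjusted p = 6.5e-06). The bZIP factors that act on storage promoters followed: EEL (AT2G41070) averaged 39.3 ± 5.9 FPKM in Col-0-2 and 103 ± 17.1 FPKM in Col-0-1 (log2 change -1.36 ± 0.13 SE, adjusted p = 5.0e-05). DPBF2 (AT3G44460, also AtbZIP67) averaged 15.9 ± 2.35 FPKM in Col-0-2 and 36.6 ± 7.55 FPKM in Col-0-1 (log2 change -1.15 ± 0.15 SE, adjusted p = 2.6e-04). The MADS gene AGL15 (AT5G13790) had a log2 change of -1.20, and smaller falls were called for WRI1 (AT3G54320), the activator of fatty acid synthesis (-0.49), ABI4 (AT2G40220, -0.82), BBM (AT5G17430, -0.76) and MYB118 (AT3G27785, -0.57). The list also held MYB115 (AT5G40360, -0.52), and the bZIP genes BZO2H1 (AT4G02640, -0.60) and BZIP25 (AT3G54620, -0.25, not called with the replicate block and the length and GC trend removed together), while BZIP53 (AT3G62420) was below the filter.

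LEC1 (AT1G21970), the nuclear factor Y subunit above this network, went the other way. It measured 123, 124 and 124 FPKM in the Col-0-2 libraries, against 80.8, 93.2 and 67.5 FPKM in the Col-0-1 libraries. For LEC1 the log2 change was 0.63 ± 0.10 SE (adjusted p = 7.4e-04), with no overlap between the sets. The Col-0-2 libraries were almost level with each other, while the Col-0-1 libraries spread. DOG1 (AT5G45830), a dormancy gene, was near the detection filter in both sets at 2.09 ± 0.147 FPKM in Col-0-2 and 0.908 ± 0.409 FPKM in Col-0-1 (log2 change 0.72 ± 0.18 SE, adjusted p = 0.0074). LEC2 (AT1G28300) measured 14.4, 12.6 and 15.2 FPKM in the Col-0-2 libraries, against 17.1, 18.7 and 14.2 FPKM in the Col-0-1 libraries and did not pass (log2 change -0.23 ± 0.11 SE, adjusted p = 0.0897), and its values overlapped. ABI5 (AT2G36270) also overlapped, with 5.92 ± 0.231 FPKM in Col-0-2 and 5.77 ± 0.762 FPKM in Col-0-1 (log2 change 0.04 ± 0.10 SE, adjusted p = 0.774). All 3 tested VAL repressors, which close down the embryo program after germination, were lower: HSL1 (AT4G32010, -0.86), VAL3 (AT4G21550, -0.55) and HSI2 (AT2G30470, -0.39, a call that was lost with the length and GC trend removed).

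Among the storage genes, 12 of 13 were tested, 11 were lower in Col-0-2 and none was higher, with a median of -2.98. SESA1 (AT4G27140), a sulfur-rich 2S albumin gene, measured 17.3, 18.6 and 16 FPKM in the Col-0-2 libraries, against 91.4, 45.1 and 163 FPKM in the Col-0-1 libraries. For SESA1 the log2 change was -2.28 ± 0.38 SE (adjusted p = 9.1e-04), and every Col-0-2 library lay below every Col-0-1 library. CRU3 (AT4G28520), a cruciferin gene, measured 2.29, 3.14 and 0.387 FPKM in the Col-0-2 libraries, against 68.5, 7.51 and 149.8 FPKM in the Col-0-1 libraries. For CRU3 the log2 change was -4.07 ± 0.94 SE (adjusted p = 0.00519), and the sets did not overlap. Its Col-0-1 libraries thus spread widely, with replicate 2 far below the other two, yet still above every Col-0-2 library. That order held across the group: replicate 3 was highest and replicate 2 lowest among the Col-0-1 libraries for 11 of the 11 called storage genes, and replicate 2 was highest among the Col-0-2 libraries for 11 of 11. Because the SESA genes stand in tandem and are alike, their single values are uncertain. The cupin gene AT4G36700 was the member that did not pass, with 318 ± 12.8 FPKM in Col-0-2 and 354 ± 30.7 FPKM in Col-0-1 (log2 change -0.15 ± 0.07 SE, adjusted p = 0.0796). AT4G36700 thus made up most of the summed level of the group in Col-0-2 (482 ± 61.3 FPKM), but not in Col-0-1 (3034 ± 1734 FPKM).

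Genes of oil bodies and oil assembly followed (11 of 13 tested lower, 1 higher, median -0.65). Relative to all genes this median was -0.55, and -1.04 once the length and GC trend was removed, where 2 were higher. OLEO1 (AT4G25140), the main oleosin of the oil body coat, measured 98.5, 129 and 87.5 FPKM in the Col-0-2 libraries, against 723, 527 and 1044 FPKM in the Col-0-1 libraries. For OLEO1 the log2 change was -2.82 ± 0.23 SE (adjusted p = 2.3e-05), with no overlap between the sets. ATS1 (AT4G26740), the seed caleosin, measured 2.13, 2.19 and 1.51 FPKM in the Col-0-2 libraries, against 27.7, 14.5 and 44.4 FPKM in the Col-0-1 libraries. For ATS1 the log2 change was -3.22 ± 0.33 SE (adjusted p = 6.7e-05), and every Col-0-2 library lay below every Col-0-1 library. PDAT (AT5G13640), an acyltransferase of oil assembly, was slightly higher at 11.9 ± 0.261 FPKM in Col-0-2 and 9.8 ± 1.19 FPKM in Col-0-1 (log2 change 0.26 ± 0.09 SE, adjusted p = 0.0294), and this call was lost when any library other than Col-0-1 replicate 2 was left out. The genes of plastid fatty acid synthesis differed far less: 20 of 33 were lower and 6 higher, none by 1 or more on the log2 scale, with a median of -0.19. The higher count was 10 under median-ratio scaling, 1 with equal nuclear sums and 3 without Col-0-1 replicate 1. CAC2 (AT5G35360), the biotin carboxylase subunit, averaged 261 ± 7.11 FPKM in Col-0-2 and 397 ± 4.2 FPKM in Col-0-1 (log2 change -0.60 ± 0.04 SE, adjusted p = 6.8e-06). MOD1 (AT2G05990), the enoyl reductase, averaged 356 ± 11.7 FPKM in Col-0-2 and 351 ± 0.765 FPKM in Col-0-1 and did not pass (log2 change 0.02 ± 0.04 SE, adjusted p = 0.656).

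LEA and desiccation genes, which act late in maturation, were mostly below the filter: 13 of 27 were tested, and of these 10 were lower and 2 higher, with a median of -1.17. Relative to all genes this median was -1.07, and -0.33 with no filter. PER1 (AT1G48130), a peroxiredoxin of the late embryo, measured 1.41, 2.3 and 1.36 FPKM in the Col-0-2 libraries, against 25.7, 13.6 and 45.5 FPKM in the Col-0-1 libraries. For PER1 the log2 change was -3.31 ± 0.36 SE (adjusted p = 9.7e-05), and the sets did not overlap. AT5G44310, annotated as a LEA protein gene, measured 0.376, 0.348 and 0.272 FPKM in the Col-0-2 libraries, against 10.5, 5.11 and 19.2 FPKM in the Col-0-1 libraries. For AT5G44310 the log2 change was -3.08 ± 0.37 SE (adjusted p = 1.4e-04), and AT5G44310 passed the filter through Col-0-1 alone. The 2 exceptions were XERO1 (AT3G50980, a dehydrin, 0.57), whose call was lost with the length and GC trend removed, and LEA18 (AT2G35300, 1.37). For 10 of the 12 called LEA genes Col-0-1 replicate 3 was again the highest of its set.

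**Figure D2:**
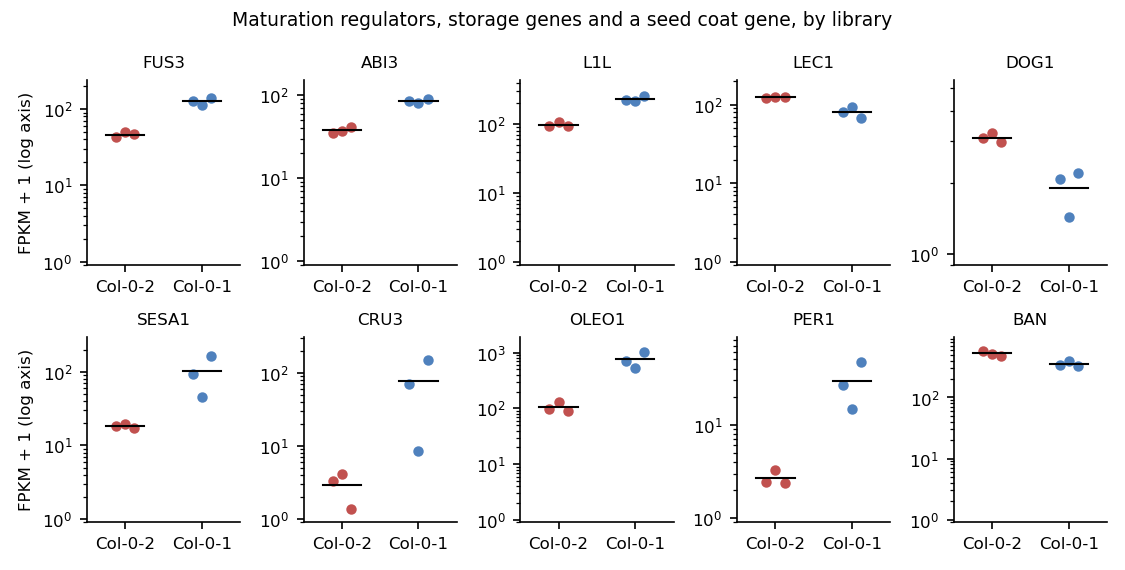
FPKM + 1 on a log axis for each library (points) and the mean of each set (bars), Col-0-2 in red and Col-0-1 in blue, for maturation regulators (top row), storage, oil body and late embryo genes and the seed coat gene BAN. FUS3, ABI3, L1L, SESA1, CRU3, OLEO1 and PER1 lie lower in all 3 Col-0-2 libraries, and LEC1, DOG1 and BAN lie higher.

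Clock genes are given by the time of day at which they are known to peak. Of 15 tested morning genes, 14 were lower in Col-0-2 and none was higher (median -0.81). With a filter of 5 FPKM, which left LHY and CCA1 untested, 9 were lower. The summed level of the listed morning genes followed the division of the plastid-encoded sums, with 84.6 ± 2.56 FPKM in Col-0-2, 88.8 ± 1.99 FPKM in dellaq, 209.8 ± 8.47 FPKM in lec1-4 and 205 ± 10.6 FPKM in Col-0-1. RVE2 (AT5G37260), a MYB factor of the CCA1 family, measured 18.1, 18.3 and 19.3 FPKM in the Col-0-2 libraries, against 72.9, 75 and 89 FPKM in the Col-0-1 libraries. For RVE2 the log2 change was -2.03 ± 0.08 SE (adjusted p = 5.1e-07), and every Col-0-2 library lay below every Col-0-1 library. LHY (AT1G01060) measured 1.59, 1.6 and 1.18 FPKM in the Col-0-2 libraries, against 3.82, 4.03 and 4.2 FPKM in the Col-0-1 libraries. For LHY the log2 change was -1.03 ± 0.12 SE (adjusted p = 1.1e-04), and the sets did not overlap. Its partner CCA1 (AT2G46830) averaged 1.71 ± 0.381 FPKM in Col-0-2 and 2.94 ± 0.0861 FPKM in Col-0-1 (log2 change -0.55 ± 0.13 SE, adjusted p = 0.00632), a call that was lost with the length and GC trend removed. CDF1 (AT5G62430), a repressor of flowering genes in the morning, averaged 1.41 ± 0.265 FPKM in Col-0-2 and 6.3 ± 0.522 FPKM in Col-0-1 (log2 change -1.60 ± 0.12 SE, adjusted p = 1.3e-05). RVE1 (AT5G17300, -1.37), RVE8 (AT3G09600, -1.18), CDF3 (AT3G47500, -1.01), CDF2 (AT5G39660, -0.63), PRR7 (AT5G02810, -0.78) and PRR9 (AT2G46790, -0.68) were lower as well. So were AT3G54500 (-0.93), AT5G64170 (-0.81), AT3G12320 (-0.43) and AT5G06980 (-0.35). The last of these was not called under median-ratio scaling, among other settings. EPR1 (AT1G18330), a further member of the MYB family, overlapped between the sets at 3.35 ± 0.508 FPKM in Col-0-2 and 3.74 ± 0.155 FPKM in Col-0-1 (log2 change -0.13 ± 0.11 SE, adjusted p = 0.335).

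Afternoon genes were lower in 5 of 6 cases (median -0.46), 3 of 6 with the length and GC trend removed. Their summed level divided the libraries in the same way, with 123 ± 2.81 FPKM in Col-0-2, 112 ± 8.44 FPKM in dellaq, 189.9 ± 10.5 FPKM in lec1-4 and 178 ± 6.19 FPKM in Col-0-1. PRR5 (AT5G24470), a pseudo-response regulator that represses morning genes, measured 6.43, 7.22 and 6.59 FPKM in the Col-0-2 libraries, against 17.5, 16.6 and 15.9 FPKM in the Col-0-1 libraries. For PRR5 the log2 change was -1.19 ± 0.07 SE (adjusted p = 4.5e-06), with no overlap between the sets. COR27 (AT5G42900) and AT4G33980 had log2 changes of -0.55 and -0.73. GI (AT1G22770, -0.37) lost its call with the length and GC trend removed. The blue light receptor FKF1 (AT1G68050, -0.26), whose values overlapped between the sets, lost its call there too. FKF1 was also not called under median-ratio scaling and in other settings, some with 1 library left out. PRR3 (AT5G60100, -0.07) did not pass.

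Evening genes went both ways, with 4 of 9 higher, 3 lower and a median of 0.19. Relative to all genes this median was 0.29, and 0.49 once the length and GC trend was removed. The summed level, mostly GRP7, was 5592 ± 158 FPKM in Col-0-2, 3699 ± 547 FPKM in dellaq, 2995 ± 147 FPKM in lec1-4 and 2632 ± 32.4 FPKM in Col-0-1. ELF4 (AT2G40080), a subunit of the evening complex, measured 49.5, 40.1 and 43.6 FPKM in the Col-0-2 libraries, against 16.8, 17.6 and 13.8 FPKM in the Col-0-1 libraries. For ELF4 the log2 change was 1.41 ± 0.10 SE (adjusted p = 1.2e-05), and every Col-0-2 library lay above every Col-0-1 library. PCL1 (AT3G46640, also LUX), the DNA-binding subunit of that complex, averaged 50.5 ± 1.6 FPKM in Col-0-2 and 26.3 ± 1.49 FPKM in Col-0-1 (log2 change 0.92 ± 0.05 SE, adjusted p = 4.2e-06). GRP7 (AT2G21660), an abundant clock-controlled RNA-binding protein, measured 4186, 4015 and 4295 FPKM in the Col-0-2 libraries, against 1610.3, 1634 and 1680.3 FPKM in the Col-0-1 libraries. For GRP7 the log2 change was 1.34 ± 0.06 SE (adjusted p = 9.5e-07), and the sets did not overlap. Its paralog CCR1 (AT4G39260, also GRP8) averaged 766 ± 8.87 FPKM in Col-0-2 and 291 ± 2.73 FPKM in Col-0-1 (log2 change 1.39 ± 0.04 SE, adjusted p = 1.2e-07). In contrast TOC1 (AT5G61380) averaged 55 ± 3.2 FPKM in Col-0-2 and 80.4 ± 1.97 FPKM in Col-0-1 (log2 change -0.54 ± 0.05 SE, adjusted p = 4.1e-05), and ELF3 (AT2G25930, -0.51) and JMJD5 (AT3G20810, -0.31) were lower too. BOA (AT5G59570) and CAT3 (AT1G20620) overlapped, with log2 changes of 0.19 and -0.14. The hour of harvest is not in the labels, so its part in these values was not tested.

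**Figure D3:**
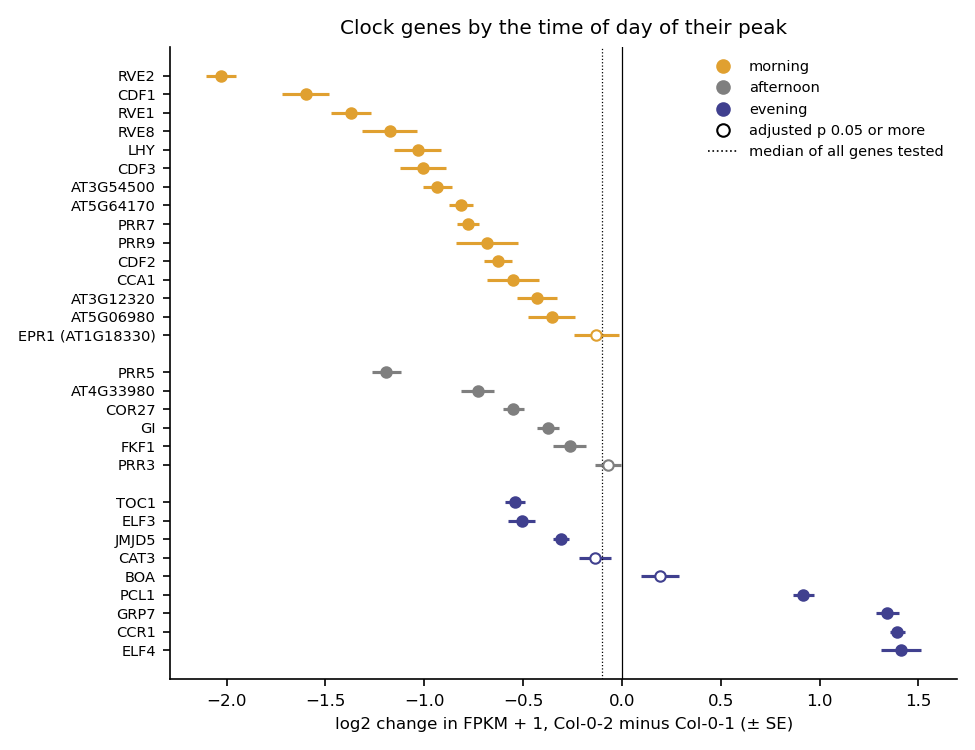
Log2 change (Col-0-2 minus Col-0-1, FPKM + 1, ± SE from limma) of 30 tested clock genes grouped by the time of day of their known peak; open circles did not pass an adjusted p of 0.05. Morning and afternoon genes lie left of 0, and of the evening genes ELF4, CCR1, GRP7 and PCL1 lie right of 0, from 0.92 to 1.41.

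Stress genes did not move as a block. Genes of touch and early wounding were higher in 9 of 11 tested cases and lower in 1 (median 0.98). TCH3 (AT2G41100), a calmodulin-like gene induced by touch, measured 168, 231 and 235 FPKM in the Col-0-2 libraries, against 47.7, 49.1 and 41.9 FPKM in the Col-0-1 libraries. For TCH3 the log2 change was 2.16 ± 0.13 SE (adjusted p = 3.8e-06), with no overlap between the sets. RHL41 (AT5G59820, also ZAT12), a zinc finger gene of many stresses, measured 31.7, 39.8 and 31.4 FPKM in the Col-0-2 libraries, against 6.6, 6.9 and 8.1 FPKM in the Col-0-1 libraries. For RHL41 the log2 change was 2.10 ± 0.11 SE (adjusted p = 2.1e-06), and every Col-0-2 library lay above every Col-0-1 library. The repressor ERF4 (AT3G15210) had a log2 change of 1.12, while CAM2 (AT2G41110), a calmodulin gene, was lower (-0.28). Jasmonate genes, which answer wounding later, were lower in 10 of 20 cases and higher in 2 (median -0.27). Relative to all genes this median was -0.17, and 40.1% of all tested genes were lower. LOX2 (AT3G45140), the lipoxygenase that starts jasmonate synthesis in leaves, measured 14, 20.8 and 16.2 FPKM in the Col-0-2 libraries, against 58, 66.6 and 44.6 FPKM in the Col-0-1 libraries. For LOX2 the log2 change was -1.67 ± 0.17 SE (adjusted p = 5.7e-05), and the sets did not overlap. The repressor gene JAZ3 (AT3G17860) averaged 2.63 ± 0.318 FPKM in Col-0-2 and 9.06 ± 0.329 FPKM in Col-0-1 (log2 change -1.48 ± 0.10 SE, adjusted p = 6.4e-06).

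Cold and dehydration genes were lower in 6 of 7 cases with none higher (median -0.94). Relative to all genes this median was -0.84, and -1.49 with a filter of 5 FPKM. LTI78 (AT5G52310, also RD29A), the classic marker of cold and drought, measured 3.11, 1.81 and 2.14 FPKM in the Col-0-2 libraries, against 11.6, 13.6 and 11 FPKM in the Col-0-1 libraries. For LTI78 the log2 change was -1.97 ± 0.15 SE (adjusted p = 1.4e-05), with no overlap between the sets. The dehydrin gene ERD10 (AT1G20450) averaged 82.9 ± 7.2 FPKM in Col-0-2 and 303 ± 3.47 FPKM in Col-0-1 (log2 change -1.86 ± 0.06 SE, adjusted p = 2.8e-07). A further dehydrin gene, COR47 (AT1G20440), averaged 120.0 ± 11.8 FPKM in Col-0-2 and 304 ± 6.32 FPKM in Col-0-1 (log2 change -1.34 ± 0.07 SE, adjusted p = 2.1e-06). Heat shock genes were higher in 8 of 15 cases and lower in none (median 0.36), but only 4 were called without Col-0-1 replicate 1 and 5 without either of the other Col-0-1 libraries. MBF1C (AT3G24500), a coactivator of the heat response, averaged 22 ± 2.97 FPKM in Col-0-2 and 8.44 ± 1.3 FPKM in Col-0-1 (log2 change 1.29 ± 0.13 SE, adjusted p = 5.1e-05). The small heat shock gene HSP17.4 (AT3G46230) measured 1.56, 12.8 and 1.39 FPKM in the Col-0-2 libraries, against 0, 0.185 and 0.186 FPKM in the Col-0-1 libraries. For HSP17.4 the log2 change was 1.97 ± 0.60 SE (adjusted p = 0.0187), and HSP17.4 passed the filter through Col-0-2 alone. Col-0-2 replicate 2 stood well above the other libraries, and the call was lost without Col-0-1 replicate 1. HSP101 (AT1G74310) and HSP70 (AT3G12580) overlapped, at log2 changes of 0.14 and 0.12. Of 17 low-oxygen genes, 7 were higher and 1 lower (median 0.29; 12 higher under median-ratio scaling), among them AT3G10040 (1.23), SRO5 (AT5G62520, 0.73) and the sucrose synthase gene SUS1 (AT5G20830, 0.68), while SUS4 (AT3G43190) was lower (-0.86).

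Sugar starvation and darkness genes showed a few large rises in a group whose median (-0.17) lay near that of all genes. Of 13 members, 6 were higher and 3 lower. The lower count was 6 without Col-0-2 replicate 2, 5 with equal nuclear sums and 1 once the length and GC trend was removed. ASN1 (AT3G47340), the asparagine synthetase that is induced in the dark, measured 24.4, 107 and 51 FPKM in the Col-0-2 libraries, against 1.61, 0.993 and 1.88 FPKM in the Col-0-1 libraries. For ASN1 the log2 change was 4.41 ± 0.45 SE (adjusted p = 6.0e-05), and the sets did not overlap. DIN2 (AT3G60140), a beta-glucosidase gene induced by darkness, measured 10, 56.7 and 25.8 FPKM in the Col-0-2 libraries, against 0.802, 0.313 and 1.36 FPKM in the Col-0-1 libraries. For DIN2 the log2 change was 3.86 ± 0.52 SE (adjusted p = 3.0e-04), with no overlap between the sets. SEN1 (AT4G35770, also DIN1) averaged 44.5 ± 24.7 FPKM in Col-0-2 and 11.5 ± 2.68 FPKM in Col-0-1 (log2 change 1.70 ± 0.42 SE, adjusted p = 0.00737). Replicate 2 was the highest Col-0-2 library for 6 of the 9 called members and replicate 1 the lowest for 9 of 9. BCAT-2 (AT1G10070), an enzyme of branched-chain amino acid breakdown, overlapped (-0.17).

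Genes of photosynthesis in the nuclear genome were lower in 38 of 43 cases and higher in 1 (median -0.60). RBCS3B (AT5G38410), a Rubisco small subunit gene, averaged 111 ± 5.85 FPKM in Col-0-2 and 344 ± 6.86 FPKM in Col-0-1 (log2 change -1.62 ± 0.05 SE, adjusted p = 1.6e-07), although the RBCS copies may share reads. CA1 (AT3G01500), the chloroplast carbonic anhydrase, measured 19.9, 20.2 and 20.8 FPKM in the Col-0-2 libraries, against 54, 52.3 and 56.6 FPKM in the Col-0-1 libraries. For CA1 the log2 change was -1.38 ± 0.05 SE (adjusted p = 3.5e-07), and every Col-0-2 library lay below every Col-0-1 library. The antenna genes LHCB2.2 (AT2G05070) and LHCB6 (AT1G15820) overlapped, at 0.02 and 0.07.

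In the seed coat, the flavonoid and tannin genes were higher in 11 of 17 cases and lower in 4 (median 0.46). TT2 (AT5G35550), the MYB factor of tannin synthesis, measured 31.1, 22.6 and 25.1 FPKM in the Col-0-2 libraries, against 8.58, 8.69 and 7.56 FPKM in the Col-0-1 libraries. For TT2 the log2 change was 1.55 ± 0.11 SE (adjusted p = 1.2e-05), and the sets did not overlap. LDOX (AT4G22880), an enzyme of tannin precursors, averaged 417 ± 54.3 FPKM in Col-0-2 and 232 ± 35.9 FPKM in Col-0-1 (log2 change 0.85 ± 0.13 SE, adjusted p = 4.8e-04). BAN (AT1G61720), the anthocyanidin reductase, averaged 528 ± 56.7 FPKM in Col-0-2 and 354 ± 35.4 FPKM in Col-0-1 (log2 change 0.57 ± 0.09 SE, adjusted p = 8.0e-04). TT12 (AT3G59030), the vacuolar transporter of the precursors, and TT16 (AT5G23260), a MADS factor, were higher by 1.03 and 0.91. Lower were the bHLH partner of TT2, TT8 (AT4G09820, -0.68), and TT10 (AT5G48100, -0.50), the laccase that browns the coat late. The order of libraries was unlike that of the storage genes: replicate 1 was the highest Col-0-2 library for 13 of the 15 called members, and replicate 3 the lowest Col-0-1 library for 14. F3H (AT3G51240) was listed at 0 in every library, and whether this reflects its RNA or how reads were counted was not tested.

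Mucilage genes of the coat were split, with 8 of 25 higher and 12 lower (median -0.03; 13 higher and 6 lower with the length and GC trend removed). AT3G50990, annotated as a peroxidase, measured 282, 281 and 290.4 FPKM in the Col-0-2 libraries, against 68.7, 71.8 and 48.8 FPKM in the Col-0-1 libraries. For AT3G50990 the log2 change was 2.18 ± 0.13 SE (adjusted p = 4.0e-06), with no overlap between the sets. AT2G47670, annotated as a pectin methylesterase inhibitor, averaged 69.7 ± 11.1 FPKM in Col-0-2 and 25.3 ± 7.46 FPKM in Col-0-1 (log2 change 1.46 ± 0.21 SE, adjusted p = 4.4e-04). GATL5 (AT1G02720), a galacturonosyltransferase-like gene, measured 80, 82.3 and 82.8 FPKM in the Col-0-2 libraries, against 219, 181 and 254 FPKM in the Col-0-1 libraries. For GATL5 the log2 change was -1.39 ± 0.11 SE (adjusted p = 1.4e-05), and every Col-0-2 library lay below every Col-0-1 library. MUM2 (AT5G63800), the galactosidase that lets mucilage swell, had a log2 change of -0.67. MUM4 (AT1G53500), which makes rhamnose for mucilage, did not pass (0.15).

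Endosperm genes also split, with 4 of 13 tested members higher, 3 lower and a median of 0.01. With equal nuclear sums 5 were lower, and with a filter of 5 FPKM, which left PHE1 untested, 2 were higher. PHE1 (AT1G65330), an imprinted MADS gene of the early endosperm, measured 8.33, 6.05 and 4.31 FPKM in the Col-0-2 libraries, against 0.24, 0.16 and 0.161 FPKM in the Col-0-1 libraries. For PHE1 the log2 change was 2.57 ± 0.20 SE (adjusted p = 1.6e-05), and PHE1 passed the filter through Col-0-2 alone. Its copy AGL38 (AT1G65300, also PHE2) averaged 4.86 ± 2.52 FPKM in Col-0-2 and 0.643 ± 0.141 FPKM in Col-0-1, and reads of the pair cannot be told apart with certainty. FWA (AT4G25530), imprinted as well, averaged 6.45 ± 0.98 FPKM in Col-0-2 and 1.2 ± 0.198 FPKM in Col-0-1 (log2 change 1.76 ± 0.13 SE, adjusted p = 1.3e-05). Lower was EPR1 (AT2G27380), an extensin gene of the endosperm that shares its symbol with the clock gene above, at 437 ± 47.8 FPKM in Col-0-2 and 1382 ± 219 FPKM in Col-0-1 (log2 change -1.65 ± 0.12 SE, adjusted p = 1.1e-05). RGE1 (AT1G49770, also ZOU), which drives endosperm breakdown, measured 37.1 ± 2.25 FPKM in Col-0-2 and 37 ± 2.26 FPKM in Col-0-1 and did not pass (log2 change 0.01 ± 0.06 SE, adjusted p = 0.942).

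Embryo patterning genes were lower in 14 of 25 cases and higher in 2 (median -0.43). The largest falls were WOX1 (AT3G18010, -1.32), which shapes lateral organs, KAN (AT5G16560, -0.97) and YAB3 (AT4G00180, -0.94), which set the lower face of the cotyledon, and SCR (AT3G54220, -0.91) of the root and ground tissue. REV (AT5G60690) and CUC1 (AT3G15170) overlapped, at 0.00 and 0.05. Cell cycle genes gave 4 of 23 higher and 9 lower (median -0.12), and their median against that of all genes turned to 0.11 once the length and GC trend was removed, where 7 were higher. With equal nuclear sums 2 were higher and 17 lower. PCNA1 (AT1G07370), the sliding clamp of replication, averaged 50.1 ± 1.21 FPKM in Col-0-2 and 32.3 ± 4.29 FPKM in Col-0-1 (log2 change 0.63 ± 0.08 SE, adjusted p = 3.0e-04), while the mitotic genes TPX2 (AT1G03780) and CDC20.1 (AT4G33270) fell by 0.74 and 0.73 on the log2 scale.

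Genes listed for the silique wall, stomata and vascular tissue were mostly lower in Col-0-2. Whether their RNA came from within the seed or from tissue around it was not tested. Of 9 tested genes of the silique wall and valve margin, 8 were lower in Col-0-2 and 1 higher (median -1.09), with a summed level of 160.2 to 171 FPKM in Col-0-2 libraries and 219 to 226 FPKM in Col-0-1 libraries. NAC012 (AT1G32770, also NST3), a switch for fiber cell walls, measured 0.717, 1.42 and 1.62 FPKM in the Col-0-2 libraries, against 7.31, 8.47 and 9.14 FPKM in the Col-0-1 libraries. For NAC012 the log2 change was -2.07 ± 0.17 SE (adjusted p = 2.1e-05), with no overlap between the sets. AGL8 (AT5G60910, also FUL), the valve identity gene, averaged 5.05 ± 1.74 FPKM in Col-0-2 and 15.5 ± 0.305 FPKM in Col-0-1 (log2 change -1.48 ± 0.17 SE, adjusted p = 1.3e-04), and IND (AT4G00120) of the valve margin had a log2 change of -1.09. SHP2 (AT2G42830), which is also active in ovules and seed coat, overlapped between the sets although its log2 change of 0.20 passed, and the call was lost with the replicate block and in other settings. CRC (AT1G69180) was below the filter. Stomatal genes were lower in 5 of 6 cases (median -1.24). A filter of 5 FPKM, which can leave low genes untested, gave 2 lower. The stomatal genes summed to 15.5 to 23.3 FPKM in Col-0-2 libraries and 26.4 to 32.1 FPKM in Col-0-1 libraries. SPCH (AT5G53210), which starts the lineage, measured 1.32, 1.96 and 1.29 FPKM in the Col-0-2 libraries, against 8.97, 7.47 and 9.36 FPKM in the Col-0-1 libraries. For SPCH the log2 change was -1.94 ± 0.14 SE (adjusted p = 9.6e-06), and every Col-0-2 library lay below every Col-0-1 library. EPF2 (AT1G34245), a peptide of the same lineage, was higher (1.59). MUTE (AT3G06120) was below the filter, listed at 0 in 5 of the 6 libraries. Vascular genes were lower in 5 of 6 cases (median -0.91; summed level 279.5 to 320.4 FPKM in Col-0-2 libraries and 516 to 592 FPKM in Col-0-1 libraries), among them the phloem sucrose carrier gene SUC2 (AT1G22710, 51.5 ± 4.38 FPKM in Col-0-2 and 109 ± 8.71 FPKM in Col-0-1) and SWEET11 (AT3G48740, -1.10). The part of these tissues in the other results was not tested.

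The groups of glucosinolate, iron and salicylate genes, and those formed by product name further on, were chosen after their values were seen, and no test bears on their choice. Genes of aliphatic glucosinolate synthesis, which build methionine-derived defence compounds, were lower in 24 of 28 tested cases and higher in 1 (median -1.33). MAM1 (AT5G23010), which lengthens the side chain, measured 2.11, 2.09 and 4.03 FPKM in the Col-0-2 libraries, against 50.8, 45.8 and 53.6 FPKM in the Col-0-1 libraries. For MAM1 the log2 change was -3.81 ± 0.18 SE (adjusted p = 1.4e-06), and the sets did not overlap. CYP79F1 (AT1G16410), the cytochrome that enters the core pathway, measured 1.16, 0.178 and 2.29 FPKM in the Col-0-2 libraries, against 24.4, 23.3 and 24.8 FPKM in the Col-0-1 libraries. For CYP79F1 the log2 change was -3.63 ± 0.31 SE (adjusted p = 2.7e-05), with no overlap between the sets. BCAT4 (AT3G19710), which starts chain elongation, averaged 1.01 ± 0.132 FPKM in Col-0-2 and 21.8 ± 1.71 FPKM in Col-0-1 (log2 change -3.50 ± 0.09 SE, adjusted p = 1.2e-07). Their activator MYB28 (AT5G61420) averaged 14 ± 1.78 FPKM in Col-0-2 and 53.7 ± 8.29 FPKM in Col-0-1 (log2 change -1.86 ± 0.12 SE, adjusted p = 6.6e-06). In the mutants MAM1 averaged 40.2 ± 4 FPKM in dellaq and 54.3 ± 4.77 FPKM in lec1-4, nearer to Col-0-1 than to Col-0-2. Of 8 tested genes of indole glucosinolate synthesis and glucosinolate transport, 4 were higher and 1 lower. A filter of 5 FPKM, which can leave low genes untested, gave 2 higher. CYP83B1 (AT4G31500) averaged 26.2 ± 3.05 FPKM in Col-0-2 and 5.57 ± 1.43 FPKM in Col-0-1 (log2 change 2.07 ± 0.15 SE, adjusted p = 1.4e-05), and CYP79B2 (AT4G39950) had a log2 change of 2.28. The single fall was GTR2 (AT5G62680, -0.78), a glucosinolate transporter.

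Iron genes gave 10 of 14 lower and 2 higher (median -0.72). BHLH100 (AT2G41240), a factor switched on by iron shortage, measured 0, 0.0814 and 0.0891 FPKM in the Col-0-2 libraries, against 7.34, 7.13 and 12.6 FPKM in the Col-0-1 libraries. For BHLH100 the log2 change was -3.21 ± 0.20 SE (adjusted p = 5.6e-06), and BHLH100 passed the filter through Col-0-1 alone. Its relative bHLH38 (AT3G56970) was listed at 0 in all 3 Col-0-2 libraries, against 3.25, 2.5 and 6.5 FPKM in the Col-0-1 libraries. In the mutants BHLH100 averaged 0.189 ± 0.259 FPKM in dellaq and 0.391 ± 0.174 FPKM in lec1-4, nearer to Col-0-2 than to Col-0-1. FRO3 (AT1G23020), an iron reductase, had a log2 change of -1.57. The ferritin genes FER1 (AT5G01600) and FER3 (AT3G56090), which store iron, were higher by 0.65 and 0.63, while FER2 (AT3G11050) and FER4 (AT2G40300) overlapped.

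Salicylate defence genes were higher in 10 of 12 tested cases and lower in 1 (median 1.46). PR1 (AT2G14610), the standard marker of this response, measured 11.8, 16.4 and 6.35 FPKM in the Col-0-2 libraries, against 0.0885, 0 and 0.266 FPKM in the Col-0-1 libraries. For PR1 the log2 change was 3.40 ± 0.28 SE (adjusted p = 2.2e-05), and PR1 passed the filter through Col-0-2 alone. BGL2 (AT3G57260), a glucanase gene, measured 32.5, 31.3 and 11.3 FPKM in the Col-0-2 libraries, against 1.24, 0.644 and 0.81 FPKM in the Col-0-1 libraries. For BGL2 the log2 change was 3.66 ± 0.35 SE (adjusted p = 4.8e-05), with no overlap between the sets. PR5 (AT1G75040), CHI (AT2G43570) and WRKY70 (AT3G56400) had log2 changes of 2.70, 3.46 and 1.81. NPR1 (AT1G64280), the salicylate receptor, overlapped (-0.07), and PBS3 (AT5G13320) was lower (-0.53).

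**Figure D4:**
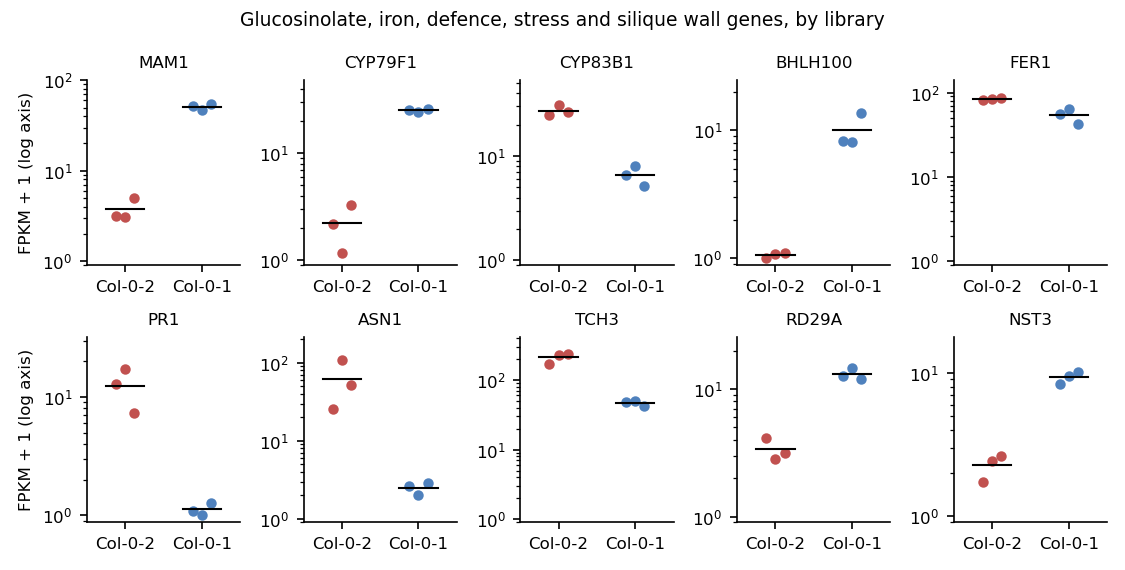
FPKM + 1 on a log axis for each library (points) and the mean of each set (bars), Col-0-2 in red and Col-0-1 in blue. MAM1, CYP79F1, BHLH100, RD29A and NST3 lie lower in all 3 Col-0-2 libraries; CYP83B1, FER1, PR1, ASN1 and TCH3 lie higher, with ASN1 spread from 24.4 to 107.4 FPKM within Col-0-2.

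The largest changes were ranked among 11102 genes past adjusted p 0.05 whose sets did not overlap and whose higher set averaged at least 5 FPKM. There, GRP5 and 11 plastid-encoded IDs made up the 12 largest rises. Among the 12 largest falls were rRNA loci, storage genes, MAM1, MEE49, the uncharacterized gene AT1G62220 and AT5G05020 of a pollen allergen family. Plastid-encoded IDs (by prefix ATCG; their gene names were not used here) were higher in 67 of 83 tested cases and lower in 1 (median 1.62). ATCG00790 measured 504, 554 and 569 FPKM in the Col-0-2 libraries, against 6.93, 4.44 and 6.11 FPKM in the Col-0-1 libraries, and the ID with the highest level in the Col-0-2 set, ATCG00220, averaged 1352 ± 76.9 FPKM in Col-0-2 and 8.76 ± 4.9 FPKM in Col-0-1. ATCG01020, the highest in Col-0-1, averaged 669 ± 26.1 FPKM in Col-0-2 and 32.9 ± 9.88 FPKM in Col-0-1. Mitochondrial IDs were higher in 19 of 26 tested cases and lower in 1 (median 1.31), led by ATMG00665 (2.84). With no filter more of these IDs were tested, and 35 were higher. ATMG00030 had the highest level in Col-0-2, at 35.2 ± 17.5 FPKM in Col-0-2 and 12 ± 2.41 FPKM in Col-0-1 (log2 change 1.39 ± 0.29 SE, adjusted p = 0.0029), and ATMG01390 the highest in Col-0-1, where the sets overlapped (-0.22). Of 4 nuclear rRNA loci 3 were lower, and the 18S locus AT3G41768 measured 31.8, 64.7 and 31.9 FPKM in the Col-0-2 libraries, against 848, 581 and 610.4 FPKM in the Col-0-1 libraries, whereas the 18S locus AT2G01010 was higher (1.48). Libraries were selected for poly-A RNA, to which most organelle and ribosomal RNA does not belong.

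Genes whose product is named for rRNA processing gave 8 of 35 tested members higher and 14 lower, with a median of 0.02 and 7 of them lower by at least 1 on the log2 scale. The higher count was 16 once the length and GC trend was removed. Of 5 genes with a Brix domain, a fold of ribosome assembly factors, 4 were lower in Col-0-2 by at least 3 on the log2 scale. MEE49 (AT4G01560) measured 1.48, 1.35 and 1.93 FPKM in the Col-0-2 libraries, against 33.2, 35 and 33.3 FPKM in the Col-0-1 libraries. For MEE49 the log2 change was -3.76 ± 0.09 SE (adjusted p = 9.7e-08), and every Col-0-2 library lay below every Col-0-1 library. IMP4 (AT1G63780) measured 0.591, 0.502 and 0.604 FPKM in the Col-0-2 libraries, against 17.3, 16.8 and 15.7 FPKM in the Col-0-1 libraries. For IMP4 the log2 change was -3.49 ± 0.09 SE (adjusted p = 9.7e-08), and IMP4 passed the filter through Col-0-1 alone. The genes AT1G52930 and AT3G15460 had log2 changes of -3.56 and -3.05. The fifth, AT3G23620, was higher in Col-0-2 at 41.7 ± 1.86 FPKM in Col-0-2 and 30.9 ± 1.06 FPKM in Col-0-1 (log2 change 0.42 ± 0.05 SE, adjusted p = 1.7e-04). AT3G13180, named for a NOL1/NOP2/sun domain, averaged 0.504 ± 0.145 FPKM in Col-0-2 and 16 ± 0.129 FPKM in Col-0-1, and the rRNA dimethylase genes DIM1B (AT5G66360) and PFC1 (AT1G01860) had log2 changes of -2.66 and -2.25. The mutants fell on opposite sides, since MEE49 averaged 1.58 ± 0.371 FPKM in dellaq and 38.9 ± 1.56 FPKM in lec1-4. The division was that of the plastid-encoded sums, and it appeared in the sums of rRNA loci as well, with 56.7 ± 22.1 FPKM in Col-0-2, 142 ± 37.1 FPKM in dellaq, 1272 ± 147 FPKM in lec1-4 and 1132 ± 241 FPKM in Col-0-1. Sums of glycine-rich protein genes divided likewise, with 4749 ± 86.2 FPKM in Col-0-2, 4545 ± 264 FPKM in dellaq, 875 ± 21.8 FPKM in lec1-4 and 1433 ± 28 FPKM in Col-0-1. So did the sums of ribosomal protein genes, with 83866 ± 1208 FPKM in Col-0-2, 71369.5 ± 2809.8 FPKM in dellaq, 54034 ± 1031 FPKM in lec1-4 and 48936 ± 523 FPKM in Col-0-1. A sum does not speak for each member. The glycine-rich gene GRP5 (AT3G20470) averaged 909 ± 293 FPKM in Col-0-2, 48.8 ± 18 FPKM in dellaq and 7.44 ± 0.393 FPKM in Col-0-1. GRP3S and GRP-3, given below, averaged 32.6 ± 4.49 and 66 ± 1.61 FPKM in dellaq, also between Col-0-1 and Col-0-2. Other members are not given singly for the mutants. Storage protein sums did not divide in this way, with 482 ± 61.3 FPKM in Col-0-2, 33225 ± 10973 FPKM in dellaq, 256 ± 68.8 FPKM in lec1-4 and 3034 ± 1734 FPKM in Col-0-1. Sums of other groups did not either. Mean sums of touch and early wounding genes were 567, 282, 319 and 271 FPKM in the same order. Those of salicylate defence genes were 164, 29.5, 48.9 and 37.6 FPKM. Those of nuclear photosynthesis genes were 15045, 25934, 17637 and 25153 FPKM. What divides the libraries as the plastid-encoded sums do was not tested.

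Ribosomal protein genes were higher in 257 of 343 tested cases and lower in 36 (median 0.59; 0.39 with the length and GC trend removed). AT3G08520, of the very short L41 proteins, averaged 1755 ± 88.9 FPKM in Col-0-2 and 165 ± 29 FPKM in Col-0-1 (log2 change 3.42 ± 0.11 SE, adjusted p = 2.7e-07). Histone-fold genes, a list that by product name also held LEC1, were higher in 38 of 47 cases and lower in 2 (median 0.67, or 0.32 with the trend removed). Small cysteine-rich peptide genes were higher in 50 of 61 cases and lower in 1 (median 1.25, or 0.62 with the trend removed). Transcript length moved with the sets, since the median log2 change was 0.48 in the lowest decile of summed exon length and -0.27 in the highest. Glycine-rich protein genes were higher in 30 of 37 cases and lower in 5 (median 1.09; 0.97). GRP3S (AT2G05380) measured 101, 177 and 89.5 FPKM in the Col-0-2 libraries, against 3.01, 3.57 and 1.97 FPKM in the Col-0-1 libraries. For GRP3S the log2 change was 4.96 ± 0.25 SE (adjusted p = 2.1e-06), with no overlap between the sets. GRP-3 (AT2G05520) averaged 243 ± 36.2 FPKM in Col-0-2 and 13.9 ± 1.07 FPKM in Col-0-1 (log2 change 4.03 ± 0.10 SE, adjusted p = 9.7e-08).

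**Figure D5:**
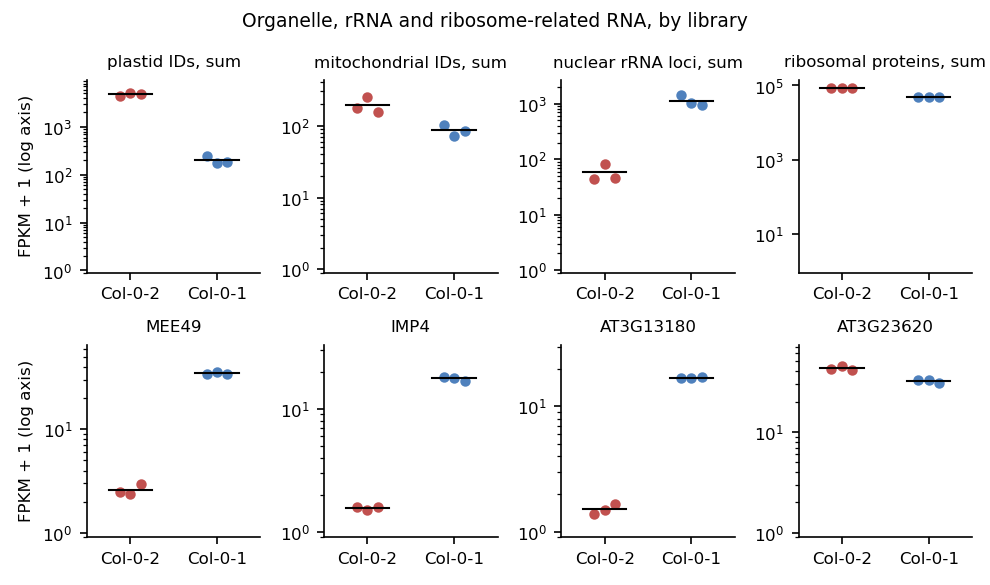
FPKM + 1 on a log axis for each library (points) and the mean of each set (bars), Col-0-2 in red and Col-0-1 in blue, for sums over plastid-encoded IDs, mitochondrial IDs, rRNA loci and ribosomal protein genes (top row) and 4 genes named for rRNA processing. MEE49, IMP4 and AT3G13180 lie lower in all 3 Col-0-2 libraries, and AT3G23620 lies higher.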

How the data were processed

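RNA from 3 Col-0-2 and 3 Col-0-1 seed libraries was compared. The deposited values are FPKM per gene made by the authors. The submitters' processing notes name DESeq 1.18.0, HTSeq 0.6.1, TopHat2 2.0.12 and Bowtie2 2.2.3, with no role. For genome build and annotation the entry is: not given in the sources used here. The kit does not mark strand, so overlapping and antisense genes, and near-identical copies, are uncertain. A count test had been allowed for, but the files hold FPKM, so log2(FPKM + 1) was fitted with limma 3.58.1 in R 4.3.3 (trend, no block, two-sided, Benjamini-Hochberg adjustment, threshold 0.05), after a filter of 1 FPKM in at least 3 of 6 libraries. Relative depth was estimated from the steps of low FPKM values, and precision at low levels follows from it. The fit was tested on simulated data. Symbols came from RefSeq, in which 32835 of 33602 IDs matched, and exon length and GC content from its annotation. All columns of per-sample values were mapped.

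The comparison, the gene groups and the rule for naming genes were chosen with earlier results of these data known. By that rule named genes were drawn from the 12 largest rises and falls, every maturation regulator and clock gene, and up to 4 largest and 2 smallest changes of each other group. The 12 rises and falls were ranked among genes past adjusted p 0.05 whose sets did not overlap and whose higher set averaged at least 5 FPKM. Further members were named after their values were seen, as exceptions or for a known role. The groups of glucosinolate, iron and salicylate genes and those defined by product name were also chosen after values were seen. Alternatives changed the pseudocount, filter, scaling, length and GC trend, libraries, block and fold limit.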

Additional observations from a re-analysis of the deposited data

How the results depend on the processing

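Group medians here are relative to the median of all tested genes, and group counts are members called higher or lower in Col-0-2. With a further log2 limit of 1 (genes 1349 higher and 922 lower), higher counts were maturation 0, oil 0, fatty acid synthesis 0, LEA 1, touch 5, jasmonate 0 and heat shock 2. Other higher counts were low oxygen 1, photosynthesis 0, cell cycle 0, flavonoids 2, mucilage 2, embryo 0 and silique wall 0. Lower counts there were maturation 6, oil 6, fatty acid synthesis 0, morning clock 6, afternoon clock 1, evening clock 0 and sugar starvation 0. Further lower counts were touch 0, jasmonate 4, cold 3, low oxygen 0, photosynthesis 8, cell cycle 0 and flavonoids 0. Other lower counts were mucilage 1, endosperm 1, embryo 1, silique wall 5, vascular 3, plastid IDs 0 and mitochondrial IDs 0. With a pseudocount of 0.1 FPKM, medians were morning clock -0.91, cold -1.28, silique wall -1.49, stomata -1.99, vascular -0.98, plastid IDs 2.55 and mitochondrial IDs 1.82. Further medians were rRNA loci -4.67. With no filter, higher counts were silique wall 0 and mitochondrial IDs 35. Lower counts were then plastid IDs 3. Medians became maturation -0.55, oil -0.73, fatty acid synthesis -0.15, LEA -0.33, morning clock -0.76, afternoon clock -0.43 and touch 0.76. Other medians were cell cycle -0.0906, mucilage 0.0007, plastid IDs 1.14 and mitochondrial IDs 0.31. With a filter of 5 FPKM, higher counts were maturation 1, heat shock 5, endosperm 2, embryo 1, plastid IDs 41 and mitochondrial IDs 4. Lower counts were then morning clock 9 and stomata 2. Medians became LEA -1.40, morning clock -0.83, cold -1.49, low oxygen 0.25, mucilage 0.17, embryo -0.39 and plastid IDs 3.37. Under median-ratio scaling, higher counts were fatty acid synthesis 10, low oxygen 12 and photosynthesis 2. Lower counts in that setting were plastid IDs 0 and mitochondrial IDs 0. Under upper-quartile scaling, higher counts were photosynthesis 2. Lower counts became mitochondrial IDs 0. With equal sums of nuclear genes, higher counts were oil 0, fatty acid synthesis 1, jasmonate 1, heat shock 5, cell cycle 2, embryo 1 and silique wall 0. Lower counts in that setting were sugar starvation 5, touch 2, low oxygen 2, cell cycle 17 and endosperm 5. With the length and GC trend removed, higher counts were oil 2, LEA 1, low oxygen 11, cell cycle 7, mucilage 13 and silique wall 0. Lower counts became afternoon clock 3, sugar starvation 1 and mucilage 6. Medians there were maturation -0.47, oil -1.04, fatty acid synthesis -0.12, LEA -1.34, morning clock -0.61, afternoon clock -0.29 and evening clock 0.49. More medians were low oxygen 0.31, photosynthesis -0.66, cell cycle 0.11, mucilage 0.16 and stomata -1.30. With all 12 libraries in the fit, higher counts were silique wall 0. Lower counts became plastid IDs 0. With the replicate block, higher counts were silique wall 0. Lower counts in that setting were mitochondrial IDs 0. With the replicate block and the length and GC trend removed, higher counts were LEA 1, jasmonate 4, low oxygen 12, cell cycle 7 and silique wall 0. Lower counts became afternoon clock 3 and mucilage 6. Medians there were maturation -0.47, oil -1.04, fatty acid synthesis -0.12, LEA -1.34, morning clock -0.61, afternoon clock -0.29 and evening clock 0.49. Other medians were low oxygen 0.31, photosynthesis -0.66, cell cycle 0.11, mucilage 0.16 and stomata -1.30. With 1 library left out, higher counts ran over oil 0 to 1, fatty acid synthesis 3 to 5, heat shock 4 to 8, embryo 1 to 2 and silique wall 0 to 1. In the same fits lower counts ran over sugar starvation 3 to 6, touch 1 to 2, low oxygen 1 to 2, plastid IDs 0 to 1 and mitochondrial IDs 0 to 2. Their medians ran over maturation -0.53 to -0.47, fatty acid synthesis -0.11 to -0.0796, touch 0.86 to 1.21, cold -1.10 to -0.80, low oxygen 0.30 to 0.40, embryo -0.34 to -0.28 and mitochondrial IDs 1.19 to 1.43. Genes called ran from 4682 to 4913 higher and from 7118 to 7470 lower when each library was left out. Heat shock rises were 4 without Col-0-1 replicate 1, and sugar starvation falls were 6 without Col-0-2 replicate 2. The cell cycle median changed sign with the length and GC trend removed (0.11 in both fits). Sign changes of named genes were counted only where the main or the altered fit called the gene, and uncalled genes near 0 changed sign as well. So counted, signs changed with equal nuclear sums for MOD1 (-0.12), JAZ12 (-0.13), REV (-0.14) and AT3G54210 (-0.14). With the length and GC trend removed they changed for LPLAT1 (0.14), JAZ12 (-0.13), MCM4 (0.22) and AT3G54210 (-0.21), and the block kept the last 3 of these. The cause was not tested. Replicate numbers did not pair the libraries (deviations of libraries with the same number correlated at 0.07, -0.11 and 0.05). The replicate block gave 4982 genes higher and 7540 lower, of which 4891 and 7448 were shared with the fit without it, while the block plus the trend removal gave 5787 and 5909. The trend removed alone gave 6038 and 6129, and 65 genes had the opposite call. Of 3764 values of named genes under these settings, 3639 kept their side of the threshold. By definition these 3639 leave out values that changed sign where either fit called the gene.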
